A study of Homo sapiens with 8 samples.

Results

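SKNAS/shHIF1a is a stable knockdown derivative of SKNAS (SK-N-AS), an established human neuroblastoma cell line. Its differences from the parent that held whether or not the cells had been treated with ciclopirox are described here. The comparison used 4 of the 8 arrays of the series, with 1 array each for the parent under vehicle, the parent under 2.5 µM ciclopirox, the derivative under vehicle and the derivative under 2.5 µM ciclopirox. All cells were grown in RPMI medium and treated for 48 h. A gene entered the set when its level in the derivative differed from that in the parent by at least 1 on the log2 scale (2-fold) in the same direction in both treatment pairs. This held for 584 of 14517 genes tested, of which 306 were higher and 278 lower in the derivative. The other 4 arrays, from the neuroblastoma lines NB1691 and SKNBE2 under the same treatments, entered the fit of the spread and served for reference levels. Ciclopirox is an antifungal drug that chelates iron, and the series was set up to study it as an inhibitor of the histone demethylase JMJD2B (KDM4B). The labels call SKNAS a c-Myc line and give SKNAS/shHIF1a, NB1691 and SKNBE2 the N-Myc status. Whether the derivative is 1 clone or a pool, which vector and hairpin it carries, and whether a control hairpin line was made is not given in the sources used here.

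HIF1A encodes a subunit of hypoxia-inducible factor whose stability depends on oxygen. It pairs with ARNT and binds DNA to switch on genes of glycolysis, iron handling and blood vessel growth. EGLN enzymes, which need iron and oxygen, mark the subunit for VHL-dependent degradation, so iron chelators are known to stabilise the protein. Neuroblastoma cells occur in a noradrenergic state, with the transcription factors and enzymes of sympathetic neurons, and in a mesenchymal state, with matrix and migration genes.

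The targeted gene was only modestly lower in the arrays labelled as knockdown. HIF1A, measured by a single probe set, had log2 levels of 12.25 under vehicle and 11.94 under ciclopirox in the parent, and 11.71 and 11.09 in the derivative. Both derivative arrays lay below both parent arrays, and below the levels of NB1691 (12.05 and 12.12) and SKNBE2 (12.01 and 11.88). The fitted difference was -0.69 ± 0.21 (SE), with an adjusted p of 0.257 in limma, so HIF1A was not called and did not meet the 2-fold rule in either pair. Protein was not measured.

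Genes were also described by lists, which were written with earlier results of these data known. Of 591 tested list members 95 met the rule and limma called 42, beside 4.02% and 1.58% of all genes tested. The list shares given below thus describe chosen genes. Of the partner subunits and sensors, 1 of 10 tested met the rule. ARNT2, a neural partner of the HIF alpha subunits, had levels of 3.50 and 4.15 in the parent and 4.63 and 5.56 in the derivative, without a limma call (adjusted p = 0.208). EPAS1, the gene of the second oxygen-regulated subunit, had levels of 7.91 and 9.48 in the parent and 8.57 and 10.54 in the derivative, where each line was higher under ciclopirox and the groups overlapped. ARNT, the constitutive partner, was close between the lines, with 6.81 and 6.78 in the parent and 7.09 and 7.19 in the derivative. EGLN1, a prolyl hydroxylase of HIF alpha, differed by 0.04 under vehicle and -0.28 under ciclopirox. EGLN3, another of these hydroxylases, differed by 0.80 and -0.65, so its sign depended on the treatment. Among 47 HIF targets tested, 2 were higher and 1 was lower by the rule, which is 6.38% against 4.02% of all genes tested. IGFBP3, a carrier of insulin-like growth factors, had levels of 8.55 and 10.64 in the parent and 10.13 and 12.54 in the derivative. CXCR4, a chemokine receptor, had 5.63 and 7.44 in the parent and 8.61 and 8.73 in the derivative. TMEM45A, a membrane protein induced by hypoxia, had 6.66 and 9.48 in the parent and 5.49 and 6.55 in the derivative. The groups overlapped for IGFBP3, did not overlap for CXCR4 or TMEM45A, and limma called none of these 3. It called 1 of the 47 targets, beside 1.58% of all genes tested. This was HMOX1 (heme oxygenase), with levels of 5.98 and 6.31 in the parent and 6.91 and 7.62 in the derivative (adjusted p = 0.0461 in limma). VEGFA, the vascular growth factor, differed by 0.32 and 0.35 and was not called (adjusted p = 0.868). The median difference of the HIF targets was -0.129 under vehicle and -0.655 under ciclopirox, beside -0.0055 and 0.0004 over all genes tested. No glycolysis gene of 20 met the rule, with medians of -0.205 and -0.595. PDK1, the kinase that restrains pyruvate entry into mitochondria, differed by -0.32 under vehicle and by -2.30 under ciclopirox, which the rule therefore left out.

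**Figure D1:**
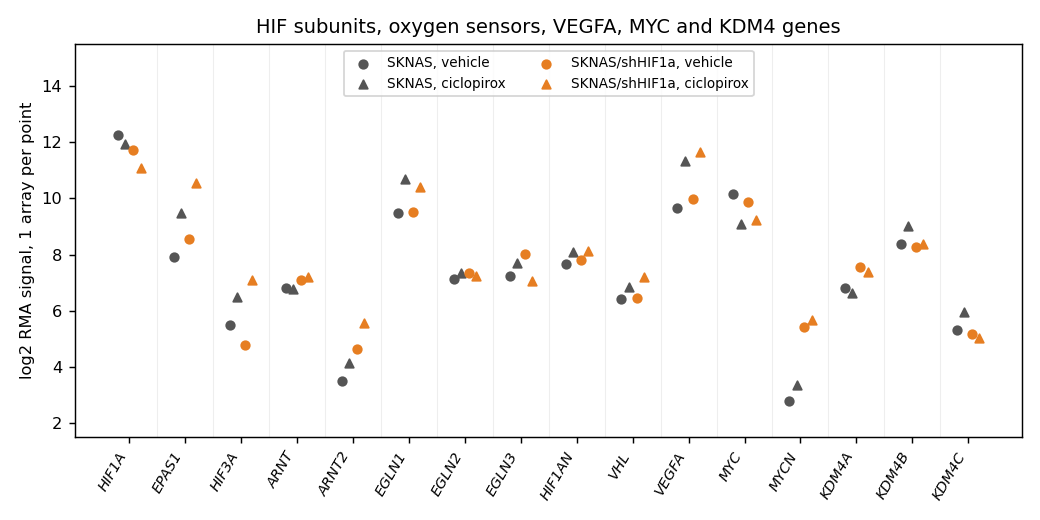
Log2 RMA signal (y axis) of 16 genes of the HIF, MYC and KDM4 families (x axis) in the parent (grey) and derivative (orange), with circles for vehicle and triangles for ciclopirox, 1 array per point. The HIF1A points of the derivative (11.71 and 11.09) sit just below those of the parent (12.25 and 11.94), and MYCN stands apart at 5.41 and 5.65 against 2.77 and 3.36.

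The arrays labelled SKNAS/shHIF1a resembled SKNAS far more than the MYCN-rich lines. Across all tested genes their levels correlated with those of the parent under the same treatment at r = 0.974 (vehicle) and 0.969 (ciclopirox), and with those of the other lines under the same treatment at 0.824 to 0.879. These coefficients are over genes, which are not replicates. MYC, the gene of c-Myc, was at 10.16 and 9.10 in the parent and 9.86 and 9.23 in the derivative, against 2.66 to 3.28 in NB1691 and SKNBE2. MYCN, the gene of N-Myc, was called higher in the derivative (2.47 ± 0.24, adjusted p = 0.00928), but at 5.41 and 5.65 it lay far below the 11.77 to 12.53 of those lines. Only 1 of its 4 tested probe sets differed this way in both pairs. The other 3 had means over all arrays, the MYCN-rich lines included, of only 3.91, 3.57 and 3.55, so they say little about MYCN. Of 5 genes at or above log2 9 in all arrays of NB1691 and SKNBE2 and under 4 in the parent (MYCN, ENPP2, NUDT11, FABP6 and LIN28B), 3 stayed under 4 in both derivative arrays and 0 reached 7. By these levels the derivative lay with SKNAS and not with the lines whose Myc status it shares in the labels. Array medians were 3.47 to 3.52. The difference between 3′ and 5′ control probe sets of ACTB was 2.45 and 2.55 in the parent and 2.72 and 2.64 in the derivative, and that of GAPDH was 0.143 and 0.112 against 0.267 and 0.157. Whether this RNA quality difference has a part in the results was not tested.

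The limma fit called 230 genes between the lines, 1.58% of those tested, of which 108 (0.744%) rose and 122 (0.84%) fell in the derivative. The 2-fold rule in both pairs took 4.02% of genes, 2.11% higher and 1.91% lower. In the vehicle pair alone 957 genes differed at least 2-fold, and 61.0% of them did so in the same direction under ciclopirox. In the ciclopirox pair alone 1202 genes did, 48.6% of them shared. Only 2 genes passed 2-fold in opposite directions. Over the 584 genes the difference changed by a median of 0.42 from one pair to the other. At 4-fold in both pairs there were 69 higher and 70 lower genes, and at 8-fold 21 and 25. Nothing in the labels says that the arrays came from separate cultures, and there was 1 array per line and treatment. The p-values therefore measure how far the change under treatment disagreed between the cell lines of the series, and not the spread of replicates. A gene with like differences in both pairs can thus lack a call, such as S100A2 (-2.71 and -2.67, SE 0.70) and FAS (2.34 and 2.29, SE 0.66). The limma count rested on the parent arrays: without the vehicle array of SKNAS it was 23 and without its ciclopirox array 28. It was 139 without either array of SKNBE2 and 149 without the vehicle array of the derivative. Replacing a gene's brightest probe set by the mean of its probe sets left 375 genes in the rule, and of 302 rule genes with several tested probe sets, 241 had the same sign in all of them.

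**Figure D2:**
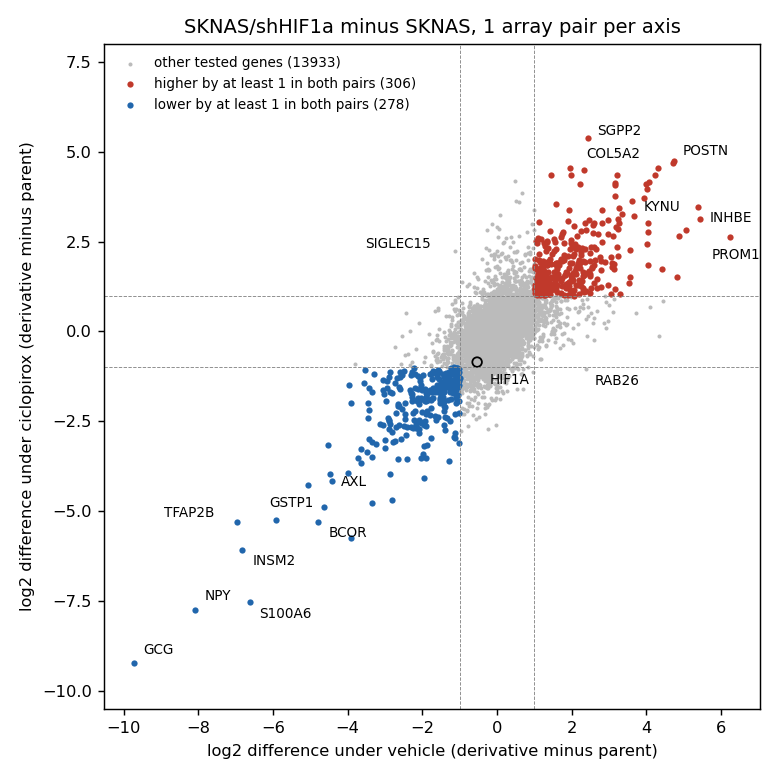
Log2 difference between derivative and parent under vehicle (x axis) and under ciclopirox (y axis), 1 point per tested gene, with the 306 genes higher in both pairs in red and the 278 lower in blue. GCG lies farthest out at -9.72 and -9.23, RAB26 and SIGLEC15 are the 2 genes past 2-fold in opposite directions, and HIF1A (open circle) lies inside the 2-fold lines.

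Most of the 12 genes farthest below the parent lay under log2 4 in both derivative arrays, near the array's low end, with S100A6 and AXL as exceptions. GCG, which encodes preproglucagon, the precursor of glucagon and GLP hormones, had levels of 12.59 and 12.14 in the parent and 2.87 and 2.90 in the derivative. NPY, the sympathetic neurotransmitter neuropeptide Y, had 11.32 and 11.10 in the parent and 3.24 and 3.36 in the derivative. S100A6, a calcium-binding protein, had 12.09 and 12.50 against 5.47 and 4.98. For each of the 3 genes the treatment moved the level little beside the gap between lines, and the groups did not overlap. The rule asks for a gap of at least 2-fold in both pairs of these same arrays. For genes of the rule, here and elsewhere, a lack of overlap thus follows in part from their choice and is a description. Limma gave -9.48 ± 0.20 for GCG (adjusted p = 9.25e-05), -7.91 ± 0.35 for NPY (0.00116) and -7.07 ± 0.32 for S100A6 (0.00116). INSM2, a zinc finger transcription factor of neuroendocrine cells, went from 9.87 and 8.66 to 3.04 and 2.57. TFAP2B, the neural crest factor AP-2 beta, went from 9.62 and 7.96 to 2.65 and 2.65. GSTP1, a glutathione transferase that detoxifies electrophiles, went from 9.33 and 9.08 to 3.41 and 3.85. All 4 arrays of NB1691 and SKNBE2 also had NPY, INSM2, TFAP2B and GSTP1, with means of 10.36, 10.56, 10.89 and 10.54, while GCG there was at a mean of 2.89, as low as in the derivative.

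BCOR, a corepressor of a Polycomb complex, had levels of 7.35 and 7.64 in the parent and 2.55 and 2.33 in the derivative, and its 3 tested probe sets were all lower. EFS, a docking protein of SRC-family kinases, had 7.74 and 7.65 in the parent and 3.11 and 2.77 in the derivative. HPGDS, a prostaglandin D synthase, had 8.49 and 7.07 in the parent and 3.44 and 2.79 in the derivative. None of these overlapped between lines. AXL, the receptor kinase for GAS6 and a mesenchymal marker, went from 7.41 and 8.47 to 2.99 and 4.31, and was higher under ciclopirox in both lines. Its other tested probe set differed by only -0.09 and -0.92. PAQR5, a membrane progestin receptor, went from 7.03 and 7.46 to 3.03 and 3.54. PCDHB6, a protocadherin of the beta cluster, went from 7.96 and 7.81 to 3.48 and 3.84, but only 1 of its 2 tested probe sets was lower in both pairs. In all, 10 genes lay at or above log2 7 in both parent arrays and under 4 in both derivative arrays, namely GCG, NPY, INSM2, TFAP2B, GSTP1, BCOR, EFS, HPGDS, PAQR5 and PCDHB6. In bulk RNA, fewer cells expressing a gene and less RNA per cell cannot be told apart.

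The reverse pattern, under 4 in the parent and at or above 7 in the derivative, was found for 1 gene, YBX3. YBX3, a cold-shock domain protein that binds RNA and DNA, had levels of 3.06 and 3.52 in the parent and 7.30 and 7.88 in the derivative. The gene farthest above the parent by its smaller pair difference was POSTN, which encodes the matrix protein periostin, with 7.22 and 6.30 in the parent and 11.96 and 11.05 in the derivative. COL5A2, a chain of fibrillar type V collagen, was at 6.02 and 6.14 in the parent and 10.72 and 10.82 in the derivative. In these 3 genes the derivative was more than log2 4 higher under either treatment, with limma differences of 4.30 ± 0.28, 4.74 ± 0.28 and 4.69 ± 0.38 (adjusted p = 0.00375, 0.00291 and 0.00626). ACKR3, a scavenging receptor for CXCL12, went from 4.54 and 4.71 to 8.85 and 9.27. MME, the membrane peptidase neprilysin, went from 2.88 and 3.30 to 6.95 and 7.47. CD24, a glycosylated surface protein, went from 7.36 and 7.21 to 11.35 and 11.30, and all 6 of its probe sets were higher by a similar amount. NB1691 and SKNBE2 had CD24 at a mean of 12.34 and NRIP1, a nuclear receptor corepressor, at 10.19. NRIP1 went from 6.69 and 7.21 in the parent to 10.70 and 11.17 in the derivative.

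The other leading genes with higher levels covered metabolism, development and immunity. KYNU, the kynureninase of tryptophan breakdown, was at 4.12 and 4.67 in the parent and 9.51 and 8.12 in the derivative. EYA4, a transcriptional coactivator with phosphatase activity, was at 5.06 and 4.46 in the parent and 8.39 and 7.72 in the derivative. C3, the central complement protein, was at 6.43 and 7.20 in the parent and 9.69 and 10.64 in the derivative. None of these 3 overlapped. CDKAL1, a tRNA-modifying enzyme, differed by 3.61 and 3.64, and MAGEA1, a cancer-testis antigen, by 3.95 and 3.71. Probes of MAGE family members can share sequence, so the member measured is uncertain. At the other end of the rule, SLIT2 (1.00 in its smaller pair) and ZNF736 (1.00) lay just inside on the higher side, with CDC42EP5 (0.996) and KIF5C (0.994) just outside. On the lower side TPBG (1.00 below the parent in its smaller pair) and SGSH (1.00) lay just inside, with PCDHB5 (-0.999) and GSTM3 (-0.994) just outside. The 24 leading genes were chosen on this contrast, so their limma calls are a description. All 24 were called over the 8 arrays, against 13 without the vehicle array of SKNAS and 14 without its ciclopirox array. Of 42 members of the gene lists below that limma called, 7 and 8 stayed called without these arrays, and 22 to 30 when any other array was left out.

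**Figure D3:**
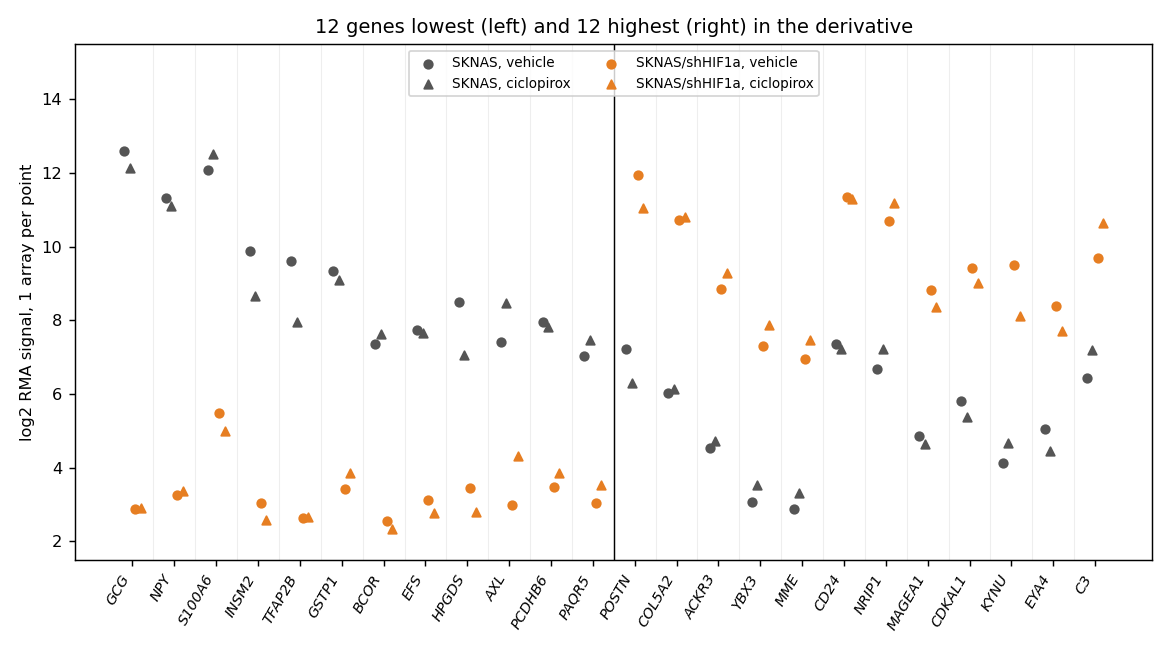
Log2 RMA signal (y axis) of the 12 genes lowest (left of the line) and 12 highest (right) in the derivative by the smaller of both pair differences, with parent arrays in grey, derivative arrays in orange, circles for vehicle and triangles for ciclopirox. For every gene shown the points of the same colour lie closer to each other than to the other colour; GCG falls from 12.59 and 12.14 to 2.87 and 2.90.

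Promoter sequence is shown for 6 of these genes, 4 lower and 2 higher, picked after their values and sequences were seen to show CG-poor and CG-rich promoters on each side. The 120 bases before the RefSeq start (GRCh38.p14) are given in the direction of the gene, with each CG dinucleotide, the site of DNA methylation, in capitals.
GCG, chr2:162152248-162152367, minus strand: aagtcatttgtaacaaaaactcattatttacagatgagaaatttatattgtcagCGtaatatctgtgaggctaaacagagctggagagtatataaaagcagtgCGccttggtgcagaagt
POSTN, chr13:37598769-37598888, minus strand: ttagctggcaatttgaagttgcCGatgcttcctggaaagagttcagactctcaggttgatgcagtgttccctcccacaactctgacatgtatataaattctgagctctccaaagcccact
NPY, chr7:24284070-24284189, plus strand: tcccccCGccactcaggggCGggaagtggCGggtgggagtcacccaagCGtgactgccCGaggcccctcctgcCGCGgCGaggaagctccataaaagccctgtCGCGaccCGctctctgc
S100A6, chr1:153535992-153536111, minus strand: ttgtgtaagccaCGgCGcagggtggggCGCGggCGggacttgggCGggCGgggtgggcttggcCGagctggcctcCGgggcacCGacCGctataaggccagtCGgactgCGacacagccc
GSTP1, chr11:67583692-67583811, plus strand: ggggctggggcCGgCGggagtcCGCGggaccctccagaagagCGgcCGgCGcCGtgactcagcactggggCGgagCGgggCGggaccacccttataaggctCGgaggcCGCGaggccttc
YBX3, chr12:10723324-10723443, minus strand: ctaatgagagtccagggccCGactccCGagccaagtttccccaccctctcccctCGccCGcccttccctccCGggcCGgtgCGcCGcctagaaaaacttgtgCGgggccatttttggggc
The windows of GCG and POSTN, with opposite differences, hold 2 and 1 CG and the letters TATAAA. Those of NPY, S100A6, GSTP1 and YBX3 hold 11, 13, 14 and 9 CG and no TATAAA. CG content and TATAAA did not always go together, since INSM2 has 13 CG and TATAAA in its window, and TFAP2B and BCOR have 4 and 3 CG and no TATAAA. That CG-rich and CG-poor promoters appear on both sides follows from how the 6 genes were picked and is not a finding. Methylation was not measured in these samples.

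Over 300-base promoters (250 before to 50 after the start), found for 240 of the 306 higher and 219 of the 278 lower genes, the core of the HIF response element (ACGTG or GCGTG, either strand) was present in 57.9% of the higher and 53.9% of the lower genes. It was present in 61.6% of 11665 tested genes with a promoter and in 48.4% of all 27305 promoters. The E-box CACGTG, which contains ACGTG and is bound by MYC and MAX among others, was in 5.83% of the higher and 7.31% of the lower genes, beside 10.0% of tested genes and 7.43% of all promoters. A ratio of observed to expected CG of at least 0.6 was found in 66.2% and 63.0%, beside 78.1% of tested genes and 49.0% of all promoters. TATAAA on the gene's strand, starting and ending between 45 and 15 bases before the start, was in 7.08% of the higher and 3.65% of the lower genes, beside 2.13% of tested genes and 2.63% of all promoters. Such matches describe letters in a window and not bound sites.

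Genes of noradrenergic and neuronal identity differed in both directions. The noradrenergic list leaned lower, with median differences of -0.424 under vehicle and -0.56 under ciclopirox, beside -0.0055 and 0.0004 over all genes. Of 21 noradrenergic genes tested, 5 were lower and 1 was higher by the rule, against 1.91% and 2.11% of all genes. Limma called 3 lower and 1 higher, against 0.84% and 0.744% of all genes. GATA2, a transcription factor of the sympathetic lineage, fell from 9.75 and 9.35 to 7.67 and 7.43 (adjusted p = 0.015). SLC18A1, a vesicular monoamine transporter, fell from 4.60 and 4.50 to 3.26 and 3.15 (adjusted p = 0.0199), and INSM2 is described above. SLC6A2, the noradrenaline transporter, was at 7.64 and 6.34 in the parent and 5.17 and 4.03 in the derivative, and CHGB, a granule protein, at 7.71 and 7.29 against 5.63 and 4.58, both without a call, and 3 of 5 SLC6A2 probe sets had this sign in both pairs. INSM1, a neuroendocrine transcription factor related to INSM2, rose from 5.86 and 4.79 to 8.39 and 7.14 (2.44 ± 0.21, adjusted p = 0.00662). INSM1 and INSM2 therefore differed in opposite directions between the same lines. The defining noradrenergic factors PHOX2A (7.81 and 7.49 against 7.34 and 6.93) and GATA3 (11.10 and 10.44 against 10.68 and 9.74) did not meet the rule. Both were somewhat lower in each pair, as were the markers ISL1 (-0.41 and -1.17) and HAND2 (-0.28 and -0.23). The enzymes DBH and TH, which make noradrenaline and its precursor, were low in both lines. DBH lay between 4.37 and 5.72 and TH between 3.15 and 3.59, beside means of 10.40 and 7.32 in the other lines. The summed log2 level of the 6 noradrenergic markers was 40.27 and 37.20 in the parent and 40.06 and 34.96 in the derivative. In this sum the higher values of DBH (0.92 and 0.30) and TH (0.44 and 0.11) offset part of the lower values of the other markers.

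Of 23 genes of the neuronal cytoskeleton and synapse, 6 (26.1%) were higher and none was lower by the rule, beside 2.11% and 1.91% of all genes. Limma called 3 higher, where 0.744% of all genes were. DCX, the microtubule protein doublecortin of migrating neurons, rose from 3.67 and 3.93 to 6.89 and 8.28 (3.78 ± 0.44, adjusted p = 0.0184). ELAVL3, a neuronal RNA-binding protein, rose from 2.57 and 3.13 to 5.79 and 5.49 (adjusted p = 0.00689). TUBB2B, a neuronal beta-tubulin, rose from 8.60 and 9.81 to 11.38 and 11.76 (adjusted p = 0.0176). For all 3 the lines did not overlap, and NB1691 and SKNBE2 had means of 9.96, 9.27 and 11.90. STMN4, NEFL and ELAVL4, with roles in microtubules, neurofilaments and RNA binding, met the rule without a call. The list's median difference was 0.285 under vehicle and 0.256 under ciclopirox, beside -0.0055 and 0.0004 over all genes. Among 15 neuropeptide genes 1 was higher and 3 were lower by the rule, 26.7% in all against 4.02% of all genes. The median difference of these 15 was 0.44 under vehicle and 0.049 under ciclopirox, so the list as a whole was not lower. ADCYAP1, which encodes the peptide PACAP, rose from 3.72 and 3.30 to 7.74 and 5.74 (adjusted p = 0.0385). NMU and VGF, both secreted peptide precursors, were lower together with NPY, at -1.13 and -2.29 for NMU and -1.04 and -1.09 for VGF, without calls.

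Mesenchymal genes differed in both directions, and both lines expressed the marker set. Of 25 tested, 4 were lower (2 with the mean of probe sets) and 1 was higher by the rule, 20% in all against 4.02% of all genes. Limma called 3 lower, AXL, THY1 and TBX18, where 0.84% of all genes were. With the mean of probe sets it called 1 lower. PRRX1, a transcription factor of the mesenchymal state, was at 9.64 and 9.96 in the parent and 8.04 and 8.81 in the derivative (adjusted p = 0.0722). CD44, the hyaluronan receptor, was at 10.85 and 11.92 in the parent and 8.64 and 10.90 in the derivative, where the groups overlapped, and 8 of its 9 probe sets had the same sign. THY1, a surface glycoprotein, fell from 7.46 and 7.92 to 6.16 and 6.41 (adjusted p = 0.0372). All 3 of its tested probe sets were lower in both pairs, 1 of them by at least 2-fold. CCN2, a matricellular growth factor, was at 2.90 and 3.14 in the parent and 4.12 and 4.98 in the derivative without a call. VIM, the intermediate filament vimentin, differed by 0.09 and 0.13. The markers FN1 (0.403 and 0.776) and SNAI2 (0.189 and 0.205) were also higher in both pairs, while FOSL1 differed by -1.098 and 0.189. The list's median difference was -0.246 under vehicle and 0.125 under ciclopirox. The summed level of 6 mesenchymal markers was 59.20 and 62.80 in the parent and 54.97 and 61.93 in the derivative, and none of the 6 lay under log2 4 in any of these arrays.

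Matrix genes differed on both sides, with other collagens in each direction. Of 19 collagens tested, 5 were higher and 3 lower by the rule, 42.1% against 4.02% of all genes. Limma called 3 higher and 1 lower, against 0.744% and 0.84% of all genes. With the mean of probe sets the rule took 4 and 1. COL4A1 and COL4A2, neighbouring genes for the basement membrane collagen chains, differed alike. COL4A1 was at 9.23 and 9.89 in the parent and 11.03 and 11.95 in the derivative (adjusted p = 0.0542), and COL4A2 rose from 8.20 and 8.79 to 9.98 and 10.77 (adjusted p = 0.0425). COL4A6, another type IV chain, fell from 6.44 and 7.14 to 4.40 and 3.62 (adjusted p = 0.0207). COL15A1, a basement membrane collagen, rose from 2.89 and 2.94 to 4.61 and 4.94 (adjusted p = 0.00877). COL1A1, the main fibrillar chain, was at 12.46 and 12.28 in the parent and 10.17 and 10.58 in the derivative, without overlap and without a call (adjusted p = 0.0698). Of 27 matrix glycoproteins 14.8% met the rule. EFEMP1 (fibulin-3) fell from 8.39 and 8.87 to 5.53 and 6.29 and FBLN2 (fibulin-2) from 6.56 and 6.49 to 3.91 and 4.47 (adjusted p = 0.0305 and 0.0199), while POSTN rose. THBS2, a thrombospondin, differed by -2.59 and -1.13, with levels of the lines that overlapped. TIMP3, an inhibitor of matrix proteases, was at 6.46 and 7.05 in the parent and 9.99 and 8.41 in the derivative, and PLAU, the urokinase protease, differed by -2.87 and -1.69, both without calls.

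Adhesion and guidance genes also split. Of 26 genes of immunoglobulin-type adhesion and axon guidance, 3 were higher and 4 lower by the rule (3 and 1 with the mean of probe sets). This was 26.9% in all against 4.02% of all genes. Limma called 2 higher and 2 lower, against 0.744% and 0.84% of all genes. SEMA6D, a transmembrane semaphorin, rose from 6.10 and 6.49 to 9.33 and 9.33, and EFNB2, an ephrin ligand, from 8.13 and 8.01 to 9.47 and 9.42 (adjusted p = 0.0102 and 0.0286). CNTN1, a contactin, fell from 8.87 and 8.53 to 6.05 and 3.85, and NRCAM, a neuronal adhesion molecule, from 5.75 and 6.93 to 4.12 and 4.45 (adjusted p = 0.0306 and 0.027). Only 1 of the 2 tested NRCAM probe sets had this sign in both pairs. The lines did not overlap for these 4 genes, which follows in part from the rule. UNC5C, a netrin receptor, was at 10.14 and 9.26 in the parent and 8.69 and 7.45 in the derivative without a call. CDH10, a cadherin, fell from 6.16 and 7.02 to 5.07 and 5.16 (adjusted p = 0.0484). PCDH17, a protocadherin, was at 6.98 and 7.04 in the parent and 9.96 and 9.76 in the derivative (adjusted p = 0.0506). Of 16 integrins, ITGA8 (9.33 and 8.80 in the parent, 5.41 and 6.80 in the derivative) and ITGA3 (4.68 and 6.09 against 3.28 and 3.70), both matrix-binding alpha chains, were lower by the rule (12.5%, against 1.91% of all genes). Limma called no integrin, with 5 at an unadjusted p under 0.05.

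Among secreted signals, 6 of 21 ligands and antagonists of the TGF-beta, BMP and WNT families (28.6%) were higher and none was lower by the rule, beside 2.11% and 1.91% of all genes, and limma called 2 higher, beside 0.744%. With the mean of probe sets 3 were higher and 1 was lower, and limma called none, BMP7 and TGFB3 included. BMP7, a bone morphogenetic protein, rose from 4.75 and 4.08 to 7.24 and 6.05 (adjusted p = 0.0115), and TGFB3, a TGF-beta ligand, from 3.72 and 4.42 to 5.70 and 5.85 (adjusted p = 0.0365). INHBE, an activin subunit, was at 2.57 and 2.83 in the parent and 8.01 and 5.96 in the derivative, with an SE of 1.72 that left it uncalled. INHBA, another activin subunit, had 3.52 and 6.25 in the parent and 5.49 and 10.60 in the derivative, so the lines overlapped and the gap was wider under ciclopirox (4.35) than under vehicle (1.98). FRZB, a secreted WNT antagonist, had 3.68 and 4.36 in the parent and 7.71 and 6.21 in the derivative. GDF15, a stress-induced member of the family, had 4.27 and 5.41 in the parent and 6.21 and 8.78 in the derivative. Over the whole list the median difference was -0.195 and 0.026. Of 20 chemokines and cytokines, IL1A, IL33, CCL20 and CXCL8, all inflammatory mediators, were higher by the rule (20%, beside 2.11% of all genes). Limma called none of the 20, with 3 at an unadjusted p under 0.05. IL1A had 5.45 and 8.53 in the parent and 8.22 and 10.23 in the derivative. CCL20 had 3.42 and 9.90 in the parent and 4.64 and 11.85 in the derivative, so its response to the drug in each line was far larger than its gap between lines, and the lines overlapped. When each array was left out, the fitted difference ranged from -0.989 to 4.16 for CCL20 and from -1.03 to 3.33 for CXCL8. The sign of the fit was thus not stable, although both pairs were positive (1.22 and 1.95 for CCL20, 1.28 and 1.02 for CXCL8). A fit without an array of the parent or derivative takes part of the drug response from NB1691 and SKNBE2. There CCL20 and CXCL8 had means of 3.26 and 3.01. IFI44L, an interferon-induced gene, rose from 5.19 and 5.36 to 8.08 and 7.29 (adjusted p = 0.0193), and was the 1 gene of 25 interferon and antigen presentation genes to meet the rule, a share of 4.0% beside 4.02% of all genes.

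Receptor kinases differed in both directions. TEK, the angiopoietin receptor TIE2, rose from 3.63 and 3.21 to 6.78 and 6.97 (adjusted p = 0.00295), while AXL fell and FLT1, a VEGF receptor, fell from 6.95 and 7.52 to 4.67 and 5.78 (adjusted p = 0.0373; 3 of 4 FLT1 probe sets had this sign in both pairs). ROR2, a WNT5A receptor, was at 4.54 and 3.11 in the parent and 6.30 and 5.87 in the derivative without a call. These 4 were the members of 24 receptor tyrosine kinases to meet the rule (16.7%, beside 4.02% of all genes). Over all lists, 95 of 591 tested members met it. The other endothelial markers CDH5, VWF and KDR stayed under log2 4 in all 4 arrays, and PECAM1 was at 3.06 and 3.77 in the parent and 3.98 and 5.46 in the derivative. Of 6 IGF binding proteins, IGFBP6 (-1.35 and -2.40) and IGFBP7 (-3.56 and -1.44) were lower and IGFBP3 higher by the rule (50% of the list, beside 4.02% of all genes), without calls. BDNF, a neurotrophin, differed by 1.47 and 2.15, and FGF5, a fibroblast growth factor, by -1.12 and -2.95, also without calls.

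The S100 genes on chromosome 1 were lower as neighbours. Of 17 S100 and annexin genes, 5 (29.4%) were lower and none was higher by the rule, beside 1.91% and 2.11% of all genes. Limma called S100A6 and S100A4 lower, where 0.84% of all genes were. S100A4, a calcium-binding protein linked to cell motility, fell from 11.70 and 11.74 to 8.46 and 8.62 (-3.18 ± 0.26, adjusted p = 0.00626). S100A2 was at 6.99 and 8.63 in the parent and 4.28 and 5.96 in the derivative, and S100A3 at 6.58 and 8.81 against 5.19 and 7.61, with overlap for S100A3 and neither called. S100A6, S100A4, S100A3 and S100A2 follow each other among tested genes in the RefSeq order (GRCh38.p14), and formed the longest of 2 runs of at least 3 neighbours that met the rule in one direction. S100A11, another member of the family, was at 10.13 and 10.42 in the parent and 8.35 and 9.23 in the derivative. The list's median difference was -0.76 under vehicle and -0.633 under ciclopirox. KRT18, an epithelial keratin, fell from 10.34 and 10.87 to 6.69 and 7.21 (adjusted p = 0.00397), while EPCAM, CDH1, KRT19 and ESRP1 stayed under log2 4 in all 4 arrays. KRT7, another epithelial keratin, was at 3.20 and 5.33 in the parent and 2.79 and 7.34 in the derivative, so under ciclopirox it was higher in the derivative, opposite to KRT18.

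Patterning, imprinted and germline genes were among the members, with 10.5% of HOX genes, 30.8% of imprinted genes and 30.8% of cancer-testis antigens past the rule, beside 4.02% of all genes. HOXD11 rose from 5.68 and 5.78 to 7.66 and 8.23 (adjusted p = 0.00662) and HOXD10, its neighbour in the HOXD cluster of positional factors, was at 7.36 and 7.42 in the parent and 9.41 and 9.76 in the derivative (adjusted p = 0.0538). Of 13 imprinted genes, GRB10, an adaptor that restrains insulin signalling, rose from 4.74 and 5.66 to 7.33 and 8.66 (adjusted p = 0.0262), and SGCE, a sarcoglycan, fell from 9.86 and 9.75 to 8.78 and 8.25 (adjusted p = 0.0471). CDKN1C, a cyclin-dependent kinase inhibitor, and DLK1, a Notch ligand homologue, were higher by the rule without calls. Of 13 cancer-testis antigens, MAGEA1, MAGEC1 and MAGEC2 rose and MAGEA6 was lower by the rule (5.30 and 4.46 in the parent, 3.31 and 3.25 in the derivative). FAS, SESN2 and GDF15, known p53 targets for cell death, stress and secretion, were higher by the rule among 16 tested (18.8%, beside 2.11% of all genes), without calls. KDM7A was the 1 of 19 JmjC demethylases to meet the rule (1.22 and 1.64), a share of 5.26% that is near the 4.02% of all genes, and KDM4B, the enzyme named in the series title, differed by -0.08 and -0.66.

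No gene of 32 for mitosis and replication, of 22 for ribosomes and nucleotide synthesis or of 20 for glycolysis passed 2-fold in both pairs. With 4.02% of all genes past the rule, lists of this size hold few such genes in any case, so these counts say little. Limma called none of them. At an unadjusted p under 0.05 there were 2, 1 and 6 in these lists. The mitosis list had a median of -0.092 under vehicle and -0.931 under ciclopirox. AURKA, a mitotic kinase, differed by -0.19 under vehicle and -1.48 under ciclopirox. MKI67, the proliferation antigen, differed by -0.54 and -1.04. These gaps were thus larger in the drug-treated pair, with 1 array per line and treatment and no test of the difference. ACTB differed by 0.01 and -0.14 and GAPDH by -0.17 and -0.29.

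PTPRC, the leukocyte phosphatase CD45, was high in the parent. It had levels of 11.53 and 10.42 in the parent and 9.57 and 6.33 in the derivative (adjusted p = 0.174), with 3 of 3 probe sets alike, and was at a mean of 3.17 in NB1691 and SKNBE2. The groups did not overlap. The other lymphoid and myeloid markers CD3D, CD14 and LYZ stayed under log2 4 in all 4 arrays, and CD68 lay between 3.06 and 4.45. LAPTM5, a lysosomal protein of blood cells on the wider list of 5 tested lymphoid and myeloid genes, also met the rule, with 4.41 and 6.14 in the parent and 3.38 and 4.20 in the derivative (adjusted p = 0.155). Both members that met the rule were thus lower in the derivative. The summed level of PTPRC, CD3D, CD14, CD68 and LYZ was 22.93 and 23.47 in the parent and 21.11 and 18.92 in the derivative. The Schwann markers SOX10 and S100B also stayed under 4.

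**Figure D4:**
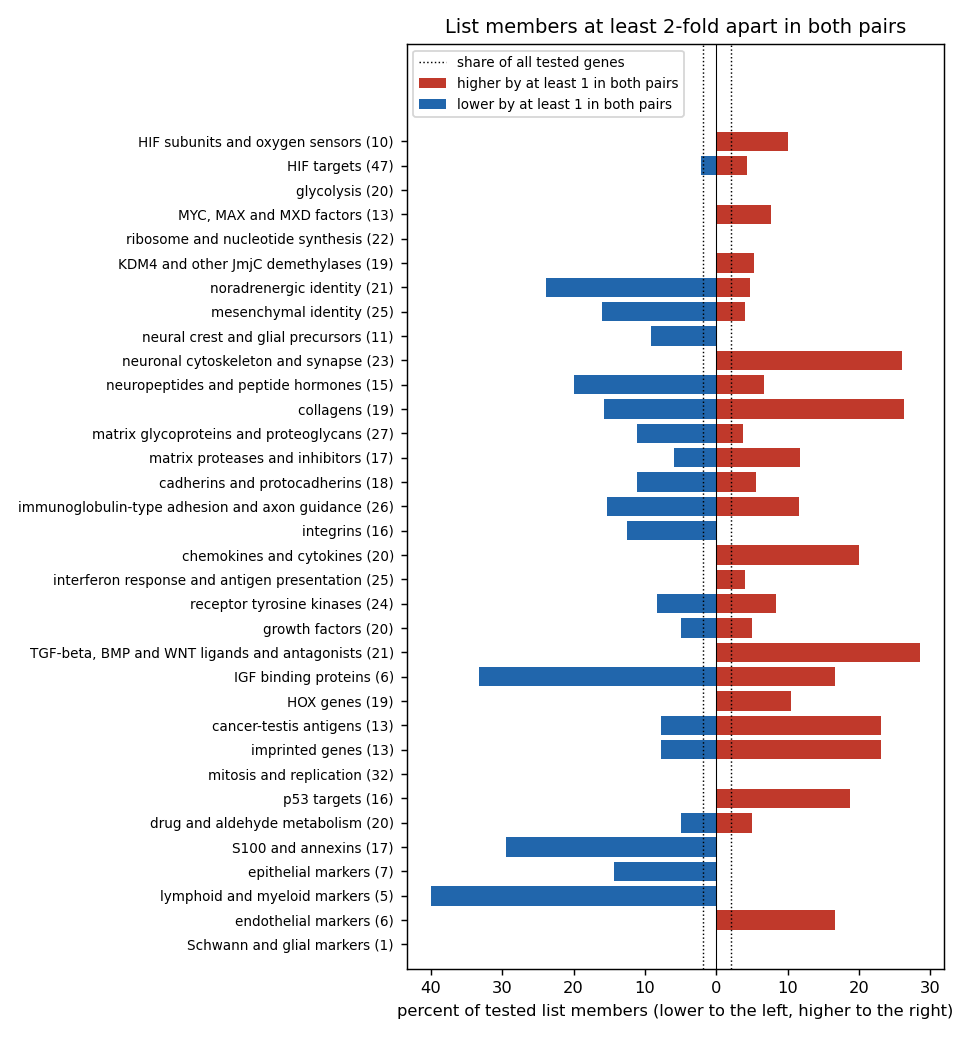
Percent of tested members of each gene list (number in brackets) at least 2-fold higher (red, right) or lower (blue, left) in both pairs, with dotted lines at the shares of all tested genes (2.11% and 1.91%). The neuronal cytoskeleton and TGF-beta lists have red bars alone, the S100 list a blue bar alone, and glycolysis, ribosome and mitosis lists have none. Of the 591 tested members of all lists, 95 met the rule.

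The higher and lower genes were set against levels in NB1691 and SKNBE2, which the rule did not use. Of the 306 higher genes, 47.1% had a mean level in those lines nearer to the derivative than to the parent, and of the 278 lower genes 59.7%, beside 49.1% of all genes tested. CD24, EYA4, NRIP1, DCX and ELAVL3 were among the higher genes that these lines also express. GCG, HPGDS, EFS and AXL were among the lower genes that were low there too, and NPY, GSTP1, TFAP2B, INSM2 and BCOR were lower in the derivative but present in both other lines.

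Along the chromosomes, small differences of the same sign were gathered on some stretches, 2 of which met the definition used here. Tested genes were placed in RefSeq order (GRCh38.p14) and taken in 714 blocks of 20. A block median past 0.2 in both pairs was found for 9 blocks on the higher side, of which 8 lay on chromosome 22, and for 19 on the lower side, of which 9 lay on chromosome 7. At least 3 such blocks in a row occurred at 2 places, a definition chosen after the values were seen. It asks for block medians of the same sign in both pairs, so it raises the shares of same-sign genes given below, which are a description. From POLR2F to SHANK3 on chromosome 22, 140 genes had a median difference of 0.485 under vehicle and 0.566 under ciclopirox, ratios of 1.40 and 1.48. There 112 genes (80.0%) were higher in both pairs, beside 32.1% of all tested genes, and the other 220 genes of the chromosome had medians of 0.033 and 0.045. Among these 220, the blocks next to the stretch were also higher, with 0.561 and 0.269 from LARGE-AS1 to TST and 0.117 and 0.24 from MPST to C22orf23. From FKBP14 to IGFBP3 on chromosome 7, 80 genes had medians of -0.362 and -0.349, and 60 of them (75.0%) were lower in both pairs, beside 32.8% of all tested genes. The lower values were not limited to this stretch. The 120 tested genes before FKBP14, towards the start of the chromosome, had medians of -0.271 and -0.254, and blocks among them reached -0.454 and -0.414 (TWIST1 to OSBPL3). The 495 genes after IGFBP3 had -0.03 and -0.056. Genes past 2-fold in both pairs numbered 7 of 140 (5.0%) on chromosome 22 and 6 of 80 (7.5%) on chromosome 7, beside 4.02% of all genes. On chromosome 22 these were CSNK1E, MCHR1, TTLL1, PHF21B, FAM118A and SBF1, higher, and BIK, a pro-apoptotic BH3-only protein, lower (-3.07 and -1.36). On chromosome 7 LINC00997 (-1.10 and -1.27), AEBP1 (-1.41 and -1.52) and PURB (-1.11 and -1.09) were lower. INHBA, IGFBP3 and ADCYAP1R1, the receptor of the PACAP peptide, were higher although their neighbours were lower on the whole. Some windows of 50 genes on other chromosomes were also lower. Medians were -0.286 and -0.291 from OTOP2 to JMJD6 on chromosome 17 and -0.255 and -0.269 from UBE2D3-AS1 to PDE5A on chromosome 4. From DRP2 to NXT2 on chromosome X they were -0.227 and -0.254. On chromosome 17 every block from MRPS7 to CCDC57, near the end of the chromosome, was lower in both pairs. The block from MFSD11 to C1QTNF1-AS1, after 2 blocks past the cut, had -0.411 and -0.199. It fell just short of 0.2, so this part did not meet the definition. The share of genes that met the rule ranged from 1.56% on chromosome 16 to 7.03% on chromosome 13.

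**Figure D5:**
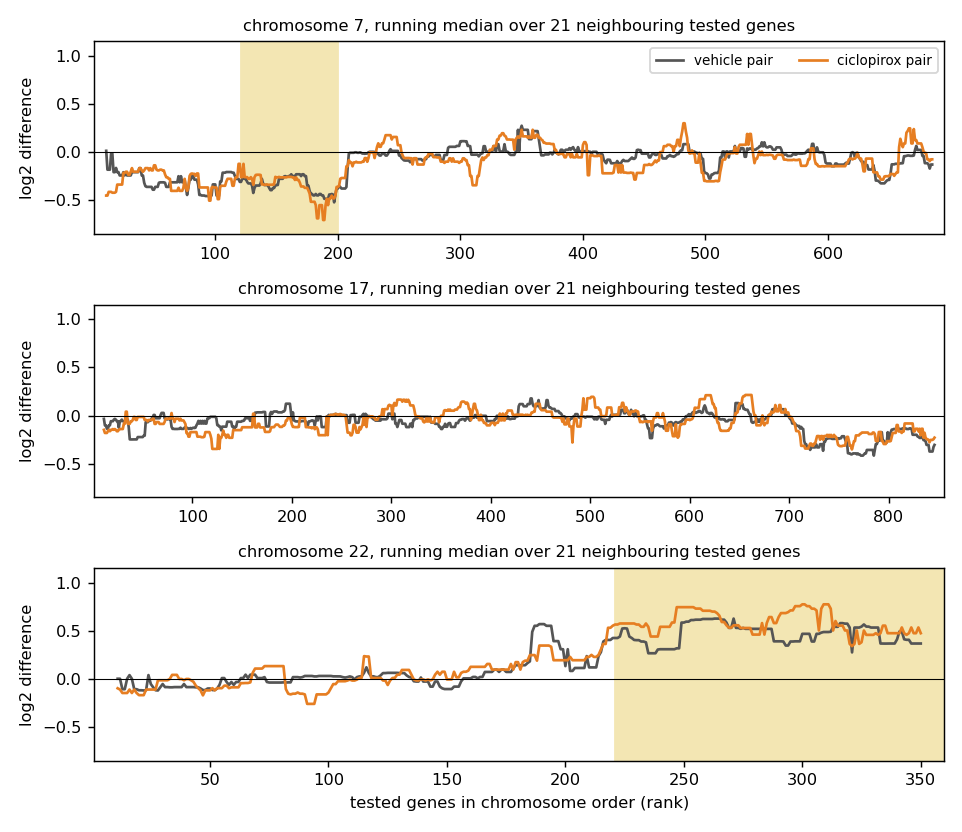
Running median of the log2 difference between derivative and parent over 21 neighbouring tested genes (y axis) against gene rank along chromosomes 7, 17 and 22 (x axis), for the vehicle pair (grey) and ciclopirox pair (orange), with the 2 stretches shaded. Both pairs lie above 0 over the shaded part of chromosome 22 (medians 0.485 and 0.566) and below 0 over that of chromosome 7 (-0.362 and -0.349).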

How the data were processed

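Total RNA was extracted with RNeasy, labelled as biotinylated cRNA and hybridised to Affymetrix arrays, per the labels' protocols. The deposited values are log2 signals that the authors made with RMA, per the submitters' processing notes; its version and software are not given in the sources used here. RMA compresses differences near the background, so fold differences of genes at the low end are understated.

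Of 54715 probe sets, 102 were controls, 40914 carried 1 symbol, 864 several and 12835 none in the platform annotation. The 19774 genes named were each represented by the probe set with the highest mean over 8 arrays, and 19734 matched RefSeq (GRCh38.p14) by Entrez ID. The test kept genes whose mean reached log2 3.21, the 40th percentile over probe sets. This filter can keep a gene through the line where it is high, and without it the rule took 589 genes. Samples were grouped by labelled line and treatment, and lines were compared within treatment. The limma fit (version 3.58.1, R 4.3.3) had cell line and treatment as terms over all 8 arrays (3 residual degrees of freedom), was two-sided, and was adjusted by Benjamini-Hochberg over all tested genes at 0.05. No method for this comparison is stated in the labels. The number of arrays limits the precision. On simulated data of 14517 genes, 4%, 70%, 96% and 92% of 50 genes changed at 2-, 4-, 8- and 16-fold were recovered, with 11 unchanged genes called.

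The genes in the rule, the 34 gene lists (591 tested members) and the tests were chosen with earlier results of these data known. Named genes were the 12 largest each way by the smaller pair difference, up to 4 list members that met the rule (or the 2 largest), 2 genes each side of the threshold and chosen HIF, MYC, KDM4, lineage and proliferation genes. GATA2, SLC18A1, TBX18, NEFL, ELAVL4, COL1A1, COL15A1, EFNB2, TGFB3, FRZB, S100A11, HMOX1, HIF-sensor and marker genes and the chromosome stretch genes were named after their values were seen. Some listed genes were not analysed here. Alternatives were other filters, the mean of probe sets, every probe set, centring, quantile normalization, no treatment term, the 4 arrays alone, an intensity trend, array weights, other thresholds and leaving out each array. Figures were drawn with matplotlib 3.10.9.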

Additional observations from a re-analysis of the deposited data

Results flagged for a closer look

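RAB26, a small GTPase of vesicle traffic, differed between derivative and parent in opposite directions under the 2 treatments. Its levels were 4.01 and 4.62 in the parent and 6.39 and 3.58 in the derivative, so the difference under ciclopirox minus that under vehicle was -3.42. SIGLEC15, a sialic acid binding receptor, did the reverse, with levels of 4.46 and 4.81 in the parent, 3.33 and 7.04 in the derivative, and a difference between pairs of 3.36. Neither difference was tested, since there was 1 array per line and treatment. The mesenchymal list had a median of -0.246 under vehicle and 0.125 under ciclopirox, and the drug and aldehyde metabolism list had -0.177 and 0.131, also untested. Among 5513 tested probe sets with no symbol or several, which the comparisons of genes did not use, 41 were higher and 50 lower by at least 2-fold in both pairs.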

How the results depend on the processing

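The count of genes called by limma was 230 and ranged from 171 to 266 without a filter, with the 60th percentile filter, probe-set means, centring, quantile normalization, no treatment term (181), an intensity trend and every probe set. It was 393 with only the 4 arrays compared, 577 with array weights and 433 at a threshold of 0.1, and from 23 to 184 when each array was left out in turn. Fewer samples and thus fewer degrees of freedom enter the fits without an array. The genes in the 2-fold rule numbered 375 with probe-set means, 1225 at 1.5-fold and 139 at 4-fold, and from 957 to 1202 with a single pair, where only 1 condition has to hold. Quantile normalization (579) and centring (585) left the count within 1.5 times, with 572 and 579 genes shared. The fitted difference changed sign, with 1 array left out, for ACTB (-0.164 to 0.033), CCL20 (-0.989 to 4.16), CXCL8 (-1.03 to 3.33), EGLN1 (-0.343 to 0.107), EGLN3 (-0.442 to 0.588), MYC (-0.715 to 0.533) and VIM (-0.094 to 0.312). A fit without an array of the parent or derivative takes part of the treatment change from the other lines. How far this accounts for each change of sign was not tested. Of 126 named genes under all alternatives, 1866 of 2126 values kept direction and side of the threshold, 171 lost their call and 77 gained one. HIF1A was called under none, and the alternative of its other probe sets was not run because a single one was named. Signal near the background limits genes under log2 4, where a further decrease cannot be seen.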

Other observations

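Some further genes of the rule, chosen after their values were seen, belong to known pathways. In prostaglandin metabolism, PLA2G4A, the phospholipase that frees arachidonic acid, rose from 4.08 and 5.22 to 7.26 and 8.14 (adjusted p = 0.0135 in limma). PTGS2, the inducible cyclooxygenase, was at 5.39 and 8.79 in the parent and 7.96 and 11.53 in the derivative, where the lines overlapped, and was not called (adjusted p = 0.382). Of the receptors for prostaglandin E, PTGER4 rose from 5.60 and 6.32 to 7.84 and 8.45 and PTGER2 fell from 7.85 and 6.96 to 5.83 and 5.35 (adjusted p = 0.0265 and 0.025 in limma). HPGDS, the prostaglandin D synthase, fell as described above.

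PHGDH, the first enzyme of serine synthesis, rose from 4.44 and 5.01 to 7.49 and 7.10 (adjusted p = 0.015 in limma). PSAT1, the next enzyme, differed by 1.38 and 1.03, ASNS, asparagine synthetase, by 2.14 and 1.83, and SLC1A4, a serine transporter, by 2.69 and 1.47, all without a call. The caveolins CAV1 (5.72 and 5.55 in the parent, 2.92 and 2.76 in the derivative) and CAV2 (4.54 and 4.76 against 3.01 and 2.90), which coat caveolae, fell together (adjusted p = 0.00291 and 0.0102 in limma). PRSS3 and PRSS2, trypsinogens, fell by 2.56 and 2.48 on the log2 scale, and as close paralogs their probes may not tell them apart. PROM1, the surface protein CD133, was at 2.69 and 2.55 in the parent and 8.92 and 5.17 in the derivative, and SGPP2, a sphingosine phosphatase, at 3.12 and 3.88 against 5.56 and 9.26, neither called (adjusted p = 0.0861 and 0.129 in limma).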
